A study of Mus musculus with 29 samples.

Results

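Interferon-stimulated genes are the genes that a cell turns on when it senses interferon. A list of 32 of them, fixed by symbol, was followed here in sorted mouse podocytes, the cells that wrap the filtering capillaries of the kidney glomerulus. For each gene, array probes were matched through their transcript accession, and the brightest probe on average over all arrays was used. All 32 were found, and all 32 passed the filter of being well above background on at least 3 arrays, among 15628 genes tested.

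The arrays came from Pod-hCD25T/G mice, which carry podocytes of both colours, TdTomato and EGFP. From what is known of the study, TdTomato marks the podocytes that express human CD25, which the immunotoxin LMB2 binds, and EGFP marks neighbours without it; the labels give only the colours. All mice were 8-week-old males on C57BL/6J. The labelled treatment was heminephrectomy and then LMB2 at 25 ng per g of body weight, and the day 0 mice were sampled before the injection; whether the day 0 mice had also had the surgery was not given in the sources used here. Podocytes were sorted by colour at day 0 and at days 1, 4 and 7, and each sample was hybridised on a one-colour (Cy3) Agilent array. There were 4, 3, 4 and 4 EGFP samples and 4, 4, 4 and 2 TdTomato samples at days 0, 1, 4 and 7, which makes 29 arrays of 16 mice. Both populations were measured in 13 mice, and each day used different mice. The TdTomato day 7 group had 2 arrays only, so its values are less firm than the rest.

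Interferons bind receptors on the cell surface, and receptor-bound kinases then activate transcription factors. One complex of these, ISGF3, holds STAT2 and IRF9 and binds the interferon-stimulated response element (ISRE) in the promoters of its targets. A second element, the gamma-activated site (GAS), serves interferon gamma signalling, and the factor IRF1 can bind ISRE-type sequences itself. The products detect viral RNA, block its translation, tag proteins with ISG15 or restrict virus at membranes. Many of them are also induced by pathways other than interferon, such as IRF3 and NF-kB signalling.

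Promoter sequences of some of the members are shown first. Each of those shown carries either or both of the 2 elements that interferon signalling is known to use. RefSeq promoter windows (GRCm38.p6, 250 bases before to 50 bases after a transcription start) existed for 27 of the 32 genes; Usp18, Dhx58, Rtp4, Parp9 and Parp14 had no entry. The ISRE core was searched as GAAA, any 2 bases and GAAA on both strands, with overlapping matches allowed, and the GAS core as TTC, any 3 bases and GAA, which reads the same on both strands. The ISRE core was found for 13 of the 27 genes (48.1%), against 3.99% of the 27025 genes in the table and 3.44% of its 32851 windows. The GAS core was found for 7 of the 27 (25.9%), against 9.55% of all genes and 8.3% of windows. Shown are the 160 bases before the start, 5′ to 3′ on the gene's own strand, in lower case with ISRE and GAS cores in capitals. Ifit3 and Irf1 stand for the day 1 increase, Ifit1, Isg15, Apol9b and Gbp3 for day 4, Rsad2 for day 7, and Bst2 for the day 1 decrease.
Ifit3: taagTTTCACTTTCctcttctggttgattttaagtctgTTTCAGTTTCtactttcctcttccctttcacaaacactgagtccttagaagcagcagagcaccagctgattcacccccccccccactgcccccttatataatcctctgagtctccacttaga
Ifit1: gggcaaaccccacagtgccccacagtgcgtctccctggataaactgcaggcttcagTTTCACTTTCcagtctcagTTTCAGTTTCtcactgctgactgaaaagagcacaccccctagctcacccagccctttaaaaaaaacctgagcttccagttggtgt
Isg15: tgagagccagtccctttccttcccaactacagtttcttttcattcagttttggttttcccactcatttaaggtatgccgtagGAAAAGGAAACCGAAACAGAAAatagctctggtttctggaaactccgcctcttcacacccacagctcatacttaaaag
Apol9b: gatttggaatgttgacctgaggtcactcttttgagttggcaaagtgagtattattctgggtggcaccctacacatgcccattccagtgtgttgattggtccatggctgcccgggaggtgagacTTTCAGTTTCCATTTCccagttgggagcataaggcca
Gbp3: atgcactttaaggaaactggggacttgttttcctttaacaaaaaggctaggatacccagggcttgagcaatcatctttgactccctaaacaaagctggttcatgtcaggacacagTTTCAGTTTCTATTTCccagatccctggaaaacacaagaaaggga
Rsad2: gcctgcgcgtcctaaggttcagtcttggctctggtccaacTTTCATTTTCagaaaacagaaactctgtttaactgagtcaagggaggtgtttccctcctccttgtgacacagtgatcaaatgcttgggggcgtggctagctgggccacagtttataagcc
Bst2: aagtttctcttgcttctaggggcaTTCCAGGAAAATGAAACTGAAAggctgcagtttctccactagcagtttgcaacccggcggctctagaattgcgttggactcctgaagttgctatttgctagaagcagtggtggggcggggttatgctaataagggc
Irf1: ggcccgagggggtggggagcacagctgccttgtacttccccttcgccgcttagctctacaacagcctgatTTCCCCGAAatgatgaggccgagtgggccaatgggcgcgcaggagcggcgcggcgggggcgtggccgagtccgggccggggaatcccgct
The stretches lie at Ifit3 chr19:34583369-34583528 (+ strand), Ifit1 chr19:34640729-34640888 (+ strand), Isg15 chr4:156200819-156200978 (- strand), Apol9b chr15:77728912-77729071 (+ strand), Gbp3 chr3:142559884-142560043 (+ strand), Rsad2 chr12:26456453-26456612 (- strand), Bst2 chr8:71537473-71537632 (- strand) and Irf1 chr11:53769854-53770013 (+ strand). Counting bases from the start, with negative positions before it, Isg15 had 3 overlapping ISRE cores between -78 and -57, and Ifit3 had 2 separate ones that began at -156 and -122. Irf1 had no ISRE core but a GAS core from -90 to -82 in the window shown. Irf1 and Gbp3 each had a second start, not shown, whose window held neither core. Bst2 had a GAS core at -136 that ran into 2 overlapping ISRE cores. Ifit2, Oasl1, Oasl2, Ifi44, Irf9 and Irf7 were among the 14 genes with a window and no ISRE core in it.

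Signals are given as log2 values relative to each array's own 75th percentile, so 0 is the level of a fairly bright probe, and levels of different genes are not comparable. A change is a difference of group means on this log2 scale with its standard error, fitted with limma on all 29 arrays, and a gene is called when its Benjamini-Hochberg adjusted p over 15628 genes is under 0.05. Between 48.2% and 65.5% of spots were well above background per array and none was saturated. In TdTomato podocytes the median of all genes moved by -0.13, -0.29 and -0.14 at days 1, 4 and 7; normexp, a background correction run here with an offset of 50 added before the log, moved the day 7 shift to -0.02. With dim probes kept, the shifts at days 4 and 7 were -0.0515 and 0.0486, and without the TdTomato day 0 array of MC122 the day 1 shift was -0.0405. Every call on a member in a TdTomato comparison kept its sign relative to that median. The podocyte label was checked against 8 markers: their median lay between 7.54 and 8.04 on all day 0 arrays and between 6.5 and 6.9 on the TdTomato day 4 arrays. The authors' own value table matched 27 arrays, but its 2 columns for mouse MC221 (day 7, both colours) did not match that mouse's scanner files, with correlations of 0.986 and 0.993 against 1 for the others. Counts of members called at day 7 are therefore given with and without MC221; the pathway genes were not refitted without it. In sorted bulk samples, fewer cells of a type and less RNA per cell cannot be told apart.

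Of the 32 genes, 20, 16 and 11 were called in the TdTomato podocytes at days 1, 4 and 7, and none was called in the EGFP podocytes before day 7. Over all genes in TdTomato podocytes, 23.8%, 21.4% and 10.9% were called higher and 27.9%, 35.9% and 8.47% lower at these days. At day 1, Ifit3, Ifit2, Irf1 and Irf9 rose in TdTomato podocytes while 16 other members fell, by 0.57 for Trim25 to 1.76 for Parp14. At day 4, 6 of these 16 were still called lower, and 10 members were called higher than day 0, among them Isg15, Oasl1, Apol9b and Ifi44. At day 7, 11 members were higher and none lower. In EGFP podocytes no member was called at days 1 or 4, and 5 were higher at day 7. Few genes of any kind were called there, with 0.0256%, 0.557% and 5.34% higher and 0%, 0.0384% and 1.92% lower at days 1, 4 and 7.

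Against the background of all genes these shares read as follows. At day 1, 4 of 32 members were called higher and 16 lower in TdTomato podocytes, where 23.8% of all genes were called higher and 27.9% lower; the median change of the members was -0.81, or -0.52 without the TdTomato day 0 array of MC742. At day 4, 10 were higher and 6 lower, against 21.4% and 35.9% of all genes, with a member median of 0.56. At day 7, 11 were higher and none lower, against 10.9% and 8.47%, with a member median of 0.97. After normexp the member medians were -0.38, 0.24 and 0.53 at these days. Leaving out both MC221 arrays lowered the day 7 count to 5, and leaving out either TdTomato day 7 array alone lowered it to 3, in each case all higher. Without either of the 2 arrays, Rsad2, Oas1a, Oasl2, Ifi44, Rtp4, Cmpk2, Gbp3 and Gbp2 lost their day 7 calls, and Isg15, Apol9b and Parp14 kept theirs. The 3 members that no comparison of days or colours called were Usp18, Ifitm3 and Samd9l.

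**Figure D1:**
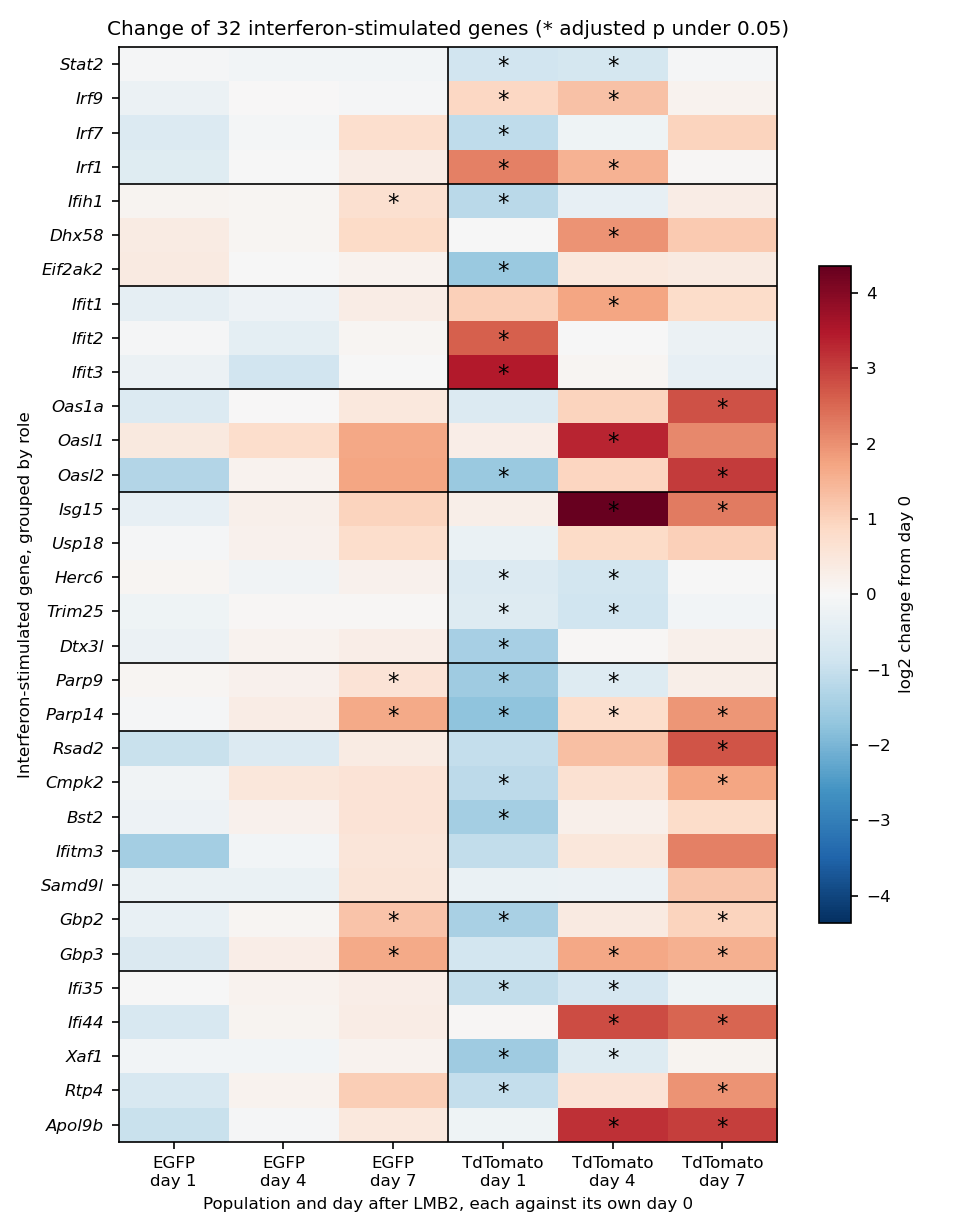
Log2 change of each of the 32 interferon-stimulated genes (rows, grouped by role) from day 0 at days 1, 4 and 7 in EGFP and TdTomato podocytes (columns); red is higher, blue is lower and a star marks an adjusted p under 0.05. The TdTomato day 1 column is mostly blue with 4 red stars, from 2.21 to 3.46 for Irf1, Ifit2 and Ifit3 and 0.91 for Irf9, and the day 7 column holds 11 stars, all red.

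Among the transcription factors, Irf1 and Irf9 rose and Stat2 and Irf7 fell. Irf1, itself one of the early interferon targets, read 5.04, 5.57, 5.70 and 5.73 on the day 0 TdTomato arrays, 6.57, 7.80, 7.92 and 8.58 at day 1, 6.47, 6.79, 7.19 and 7.71 at day 4 and 5.50 and 5.63 at day 7, while the 15 EGFP arrays had a lowest, median and highest value of 3.90, 5.65 and 6.34. All 4 day 1 and all 4 day 4 TdTomato arrays lay above every other array of the study, and the 2 day 7 arrays were back within the day 0 range. Irf1 rose by 2.21 ± 0.37 (SE), which is 4.62-fold (adjusted p = 2.1e-05) at day 1 and by 1.53 ± 0.37 at day 4 (adjusted p = 0.0012). A dimmer second probe for Irf1 changed by 1.40, 2.19 and 1.75 at days 1, 4 and 7, so the 2 probes disagreed at day 7, where the brighter one read 0.05.

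Irf9, the DNA-binding part of ISGF3, read 1.87, 2.35, 2.36 and 2.63 on the day 0 TdTomato arrays, 2.21, 3.33, 3.55 and 3.77 at day 1, 3.10, 3.59, 3.77 and 3.84 at day 4 and 2.46 and 2.47 at day 7; the 15 EGFP arrays had a lowest, median and highest value of 1.61, 2.36 and 2.67. The day 4 arrays stood clear of day 0, and at day 1 the array of mouse MC541 stayed within the day 0 range. Irf9 rose by 0.91 ± 0.27 (SE), which is 1.88-fold (adjusted p = 0.0054) at day 1, and the day 4 increase was 1.28 ± 0.27 (adjusted p = 0.00029). Stat2, the partner of IRF9 in that complex, moved the other way, with values of 1.70, 1.76, 1.78 and 2.04 on the day 0 TdTomato arrays, 0.49, 0.94, 1.11 and 1.44 at day 1, 0.94, 1.06, 1.08 and 1.11 at day 4 and 1.44 and 2.09 at day 7; the 15 EGFP arrays had a lowest, median and highest value of 1.31, 1.87 and 2.24. Stat2 fell by 0.83 ± 0.21 (SE) (adjusted p = 0.0017) at day 1 and by 0.77 ± 0.21 at day 4 (adjusted p = 0.0031), and every day 1 and day 4 array lay below every day 0 array. Irf7, which amplifies type I interferon production, was dim, well above background on 26 of 29 arrays. It read -4.30, -3.81, -3.63 and -3.18 on the day 0 TdTomato arrays, -5.98, -5.17, -4.23 and -4.02 at day 1, -4.45, -4.05, -3.82 and -3.33 at day 4 and -2.97 and -2.53 at day 7, the ranges of days 0 and 1 overlapped, and it fell by 1.12 ± 0.42 at day 1 (adjusted p = 0.029). The Irf7 call at day 1 ended without the TdTomato day 0 array of MC122 or MC753 or the TdTomato day 1 array of MC541 or MC542 (changes -1.09 to -0.74, adjusted p = 0.058 to 0.15). The Irf7 call also ended after normexp. It ended too with only the compared groups in the fit, as did the Irf9 call at day 1 (adjusted p = 0.059).

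**Figure D2:**
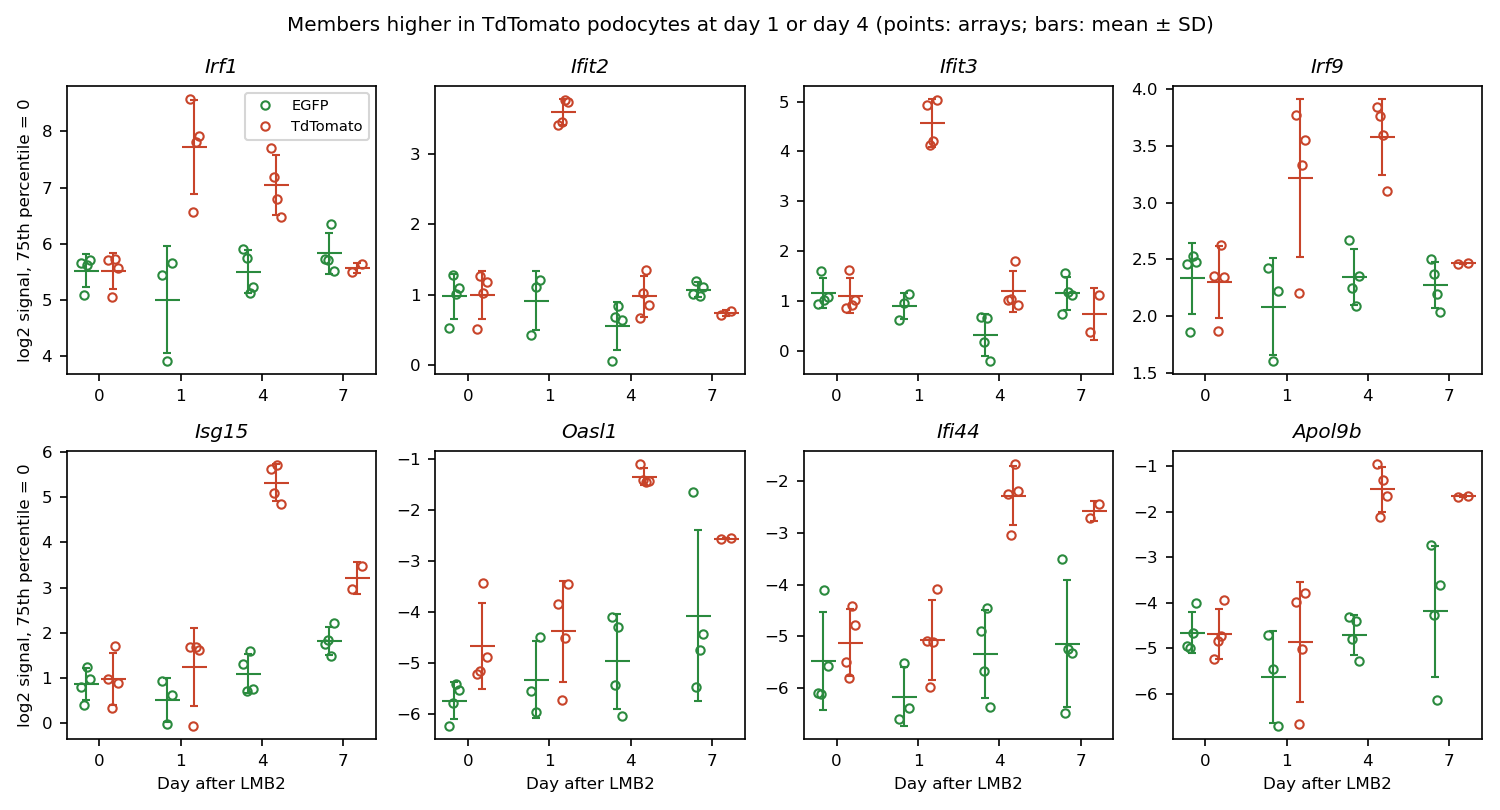
Log2 signal of 8 interferon-stimulated genes in every array (points) by day after LMB2, with the mean and SD of each group (bars), EGFP in green and TdTomato in red. Set against TdTomato day 0, Ifit2 and Ifit3 stand apart at day 1 only and Irf1 at days 1 and 4. Irf9 does so at day 4, with 3 of 4 arrays at day 1. Isg15, Oasl1, Ifi44 and Apol9b stand apart at days 4 and 7. Isg15 lies between 4.86 and 5.73 at day 4 against at most 1.71 at day 0. Ifit3 at day 4, from 0.92 to 1.81, also lies above the EGFP arrays of that day, from -0.20 to 0.69.

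The sensors of viral RNA split. Dhx58 encodes LGP2, a helicase that tunes the other sensors. It was dim, well above background on 22 of 29 arrays, and read -5.29, -5.06, -4.47 and -4.44 on the day 0 TdTomato arrays, -4.95, -4.93, -4.75 and -4.64 at day 1, -3.07, -2.83, -2.81 and -2.65 at day 4 and -3.71 and -3.66 at day 7; the 15 EGFP arrays had a lowest, median and highest value of -5.73, -4.10 and -2.74. It was well above background on 2 of the 4 TdTomato day 0 arrays. Dhx58 rose by 1.98 ± 0.39 (SE) at day 4 (adjusted p = 0.00017), when its 4 arrays lay above all 4 day 0 arrays, but the change was 0.29 and not called after normexp. Eif2ak2, the kinase PKR that halts translation on double-stranded RNA, read -1.03, -1.01, -0.94 and -0.42 on the day 0 TdTomato arrays, -3.30, -3.12, -1.93 and -1.51 at day 1, -0.77, -0.65, -0.40 and 0.22 at day 4 and -0.52 and -0.37 at day 7; the 15 EGFP arrays had a lowest, median and highest value of -1.04, -0.50 and 0.07. Eif2ak2 fell by 1.61 ± 0.32 (SE) (adjusted p = 0.00015) at day 1 (-0.91 after normexp), when every array was below every day 0 array, and was not called at day 4 (0.45, adjusted p = 0.24). Ifih1, the sensor MDA5, showed the same dip: it ranged over 0.02 to 0.52 at day 0 and -1.46 to -0.48 at day 1, a fall of 1.18 ± 0.17 (adjusted p = 3.2e-06).

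The 3 IFIT genes, whose products bind foreign RNA ends, lie close together on chromosome 19, with Ifit2 and Ifit3 next to each other and 4 genes between Ifit3 and Ifit1. Ifit2 and Ifit3 rose at day 1 and were no longer called against day 0 at day 4. Ifit3 read 0.86, 0.92, 1.03 and 1.63 on the day 0 TdTomato arrays, 4.13, 4.20, 4.93 and 5.03 at day 1, 0.92, 1.03, 1.06 and 1.81 at day 4 and 0.39 and 1.12 at day 7, while the 15 EGFP arrays had a lowest, median and highest value of -0.20, 0.96 and 1.60. Ifit3 rose by 3.46 ± 0.27 (SE), which is 11-fold (adjusted p = 2.5e-10) at day 1, and its day 4 change was 0.09 ± 0.27 (adjusted p = 0.78). Ifit2 read 0.51, 1.02, 1.17 and 1.27 on the day 0 TdTomato arrays, 3.41, 3.45, 3.74 and 3.76 at day 1, 0.67, 0.85, 1.03 and 1.35 at day 4 and 0.70 and 0.76 at day 7; the 15 EGFP arrays had a lowest, median and highest value of 0.05, 1.00 and 1.28. Ifit2 rose by 2.60 ± 0.21 (SE), which is 6.05-fold (adjusted p = 4e-10) at day 1. In both genes the 4 day 1 TdTomato arrays lay above all 25 others.

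Ifit1 followed another course. It was dim and read -5.72, -4.34, -3.93 and -3.22 on the day 0 TdTomato arrays, -3.90, -3.35, -3.22 and -2.52 at day 1, -3.10, -2.78, -2.43 and -1.96 at day 4 and -3.71 and -3.27 at day 7; the 15 EGFP arrays had a lowest, median and highest value of -5.11, -4.01 and -2.76. It was well above background on 3 of the 4 TdTomato day 0 arrays. Ifit1 rose by 1.74 ± 0.45 (SE) at day 4 (adjusted p = 0.0021) and by 0.43 after normexp. At that day its 4 arrays were above all day 0 arrays. Its day 1 change of 1.06 was not called (adjusted p = 0.052). Near-identical copies limit what these probes can tell: Ifit3b, a close copy of Ifit3, changed by 1.54 at day 1 (adjusted p = 0.016), and how far the 2 probes share signal was not tested.

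The OAS family makes or resembles the enzymes that make the oligoadenylate signal for RNase L. Oasl1 was the one called at day 4, and Oasl2 and Oas1a were called higher at day 7. Oasl1 was well above background on 13 of 29 arrays and read -5.23, -5.17, -4.88 and -3.44 on the day 0 TdTomato arrays, -5.72, -4.51, -3.85 and -3.45 at day 1, -1.45, -1.45, -1.41 and -1.10 at day 4 and -2.57 and -2.56 at day 7; the 15 EGFP arrays had a lowest, median and highest value of -6.24, -5.44 and -1.66. Oasl1 rose by 3.33 ± 0.62 (SE) at day 4 (adjusted p = 8.8e-05), with all 4 arrays above all 4 day 0 arrays, and 1 EGFP day 7 array, of mouse MC221, read -1.66. Oasl1 was well above background on 2 of the 4 TdTomato day 0 arrays, and its day 4 change was 1.13 after normexp. Oasl2 read -4.59, -4.15, -3.70 and -3.26 on the day 0 TdTomato arrays, -6.44, -6.38, -6.15 and -3.24 at day 1, -4.38, -3.48, -2.15 and -1.89 at day 4 and -1.14 and -0.60 at day 7; the 15 EGFP arrays had a lowest, median and highest value of -6.16, -3.80 and -2.01. Oasl2 fell by 1.63 ± 0.67 (SE) (adjusted p = 0.044) at day 1, a call that ended in 12 of 20 alternatives, and rose by 3.05 ± 0.82 at day 7 (adjusted p = 0.011). Oas1a, well above background on 16 of 29 arrays, read -4.78, -4.31, -3.54 and -3.25 on the day 0 TdTomato arrays, -6.14, -4.66, -4.61 and -2.86 at day 1, -5.60, -3.58, -1.59 and -1.29 at day 4 and -1.83 and -0.56 at day 7; the 15 EGFP arrays had a lowest, median and highest value of -5.70, -4.89 and -3.24. Its day 7 increase was 2.77 ± 0.92 (adjusted p = 0.036), and its day 4 arrays spanned from -5.60 to -1.29, with mice MC822 and MC823 high and MC692 low. The Oasl2 call at day 1 ended without the TdTomato day 0 array of MC122 or MC742 or MC753 or the TdTomato day 1 array of MC125 or MC541 or MC542 (changes -1.71 to -1.33, adjusted p = 0.059 to 0.14). After normexp the day 7 changes were 1.39 for Oasl2 and 1.09 for Oas1a, both still called. Quantile scaling ended the Oas1a call at day 7 (2.58, adjusted p = 0.075). The Oasl2 call at day 7 ended without the TdTomato day 7 array of MC221 or MC791 (changes 2.78 to 3.32, adjusted p = 0.054 to 0.11). The Oas1a call at day 7 ended without the TdTomato day 0 array of MC731 or MC753 or the TdTomato day 7 array of MC221 or MC791 (changes 2.14 to 3.41, adjusted p = 0.066 to 0.27).

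Isg15, which encodes a ubiquitin-like protein that enzymes attach to other proteins, had the largest change from day 0 of the 32 members. It read 0.32, 0.88, 0.96 and 1.71 on the day 0 TdTomato arrays, -0.07, 1.60, 1.69 and 1.69 at day 1, 4.86, 5.10, 5.63 and 5.73 at day 4 and 2.97 and 3.47 at day 7; the 15 EGFP arrays had a lowest, median and highest value of -0.03, 0.98 and 2.21. At day 1 the TdTomato arrays overlapped day 0, at day 4 all 4 lay above every other array of the study, and at day 7 both lay between. Isg15 rose by 4.36 ± 0.35 (SE), which is 20.6-fold (adjusted p = 4e-10) at day 4 and by 2.25 ± 0.43 at day 7 (adjusted p = 0.00061). A second Isg15 probe changed by 4.54 and 2.53 at these days. Of the ligases Herc6 and Trim25 and the protease Usp18, none was called higher at days 1, 4 or 7. Herc6, the main ISG15 ligase of the mouse, fell by 0.60 at day 1 (adjusted p = 0.033) and by 0.80 ± 0.23 at day 4 (adjusted p = 0.005). Trim25, a ligase that acts on the sensor RIG-I, fell by 0.88 ± 0.14 (adjusted p = 1.7e-05), from 4.25 to 4.64 at day 0 to 3.34 to 3.84. The Herc6 call at day 1 ended without the TdTomato day 0 array of MC742 or MC753 or the TdTomato day 1 array of MC125 or MC831 (changes -0.58 to -0.43, adjusted p = 0.063 to 0.14). Usp18, which removes ISG15, changed by 0.83 at day 4 (adjusted p = 0.13). Outside the 32 genes, Ube2l6, the enzyme that passes ISG15 to the ligases, rose by 2.21 ± 0.20 at day 4 (adjusted p = 4.4e-09); it was chosen for mention after its values were seen.

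Parp9, Dtx3l and Parp14 lie within a few genes of each other on chromosome 16, and PARP9 and DTX3L work as a pair of ADP-ribosyltransferase and ubiquitin ligase. All 3 fell at day 1. Parp14 read -1.73, -1.54, -0.79 and -0.62 on the day 0 TdTomato arrays, -3.56, -3.01, -3.00 and -2.13 at day 1, -0.70, -0.66, -0.21 and 0.01 at day 4 and 0.57 and 0.91 at day 7; the EGFP arrays read -1.65, -1.64, -0.59 and -0.54 at day 0 and 0.25, 0.43, 0.53 and 0.95 at day 7. Parp14 fell by 1.76 ± 0.30 (SE) (adjusted p = 3.2e-05) at day 1, then rose above day 0 by 1.91 ± 0.37 at day 7 (adjusted p = 0.00074), and its EGFP change at day 7 was 1.64 ± 0.30 (adjusted p = 0.00077). After normexp its day 1 change was -0.91. Its smaller day 4 call, 0.78 (adjusted p = 0.032), ended in 7 of 20 alternatives. The Parp14 call at day 4 ended without the TdTomato day 0 array of MC122 or MC731 or the TdTomato day 4 array of MC822 or MC823 (changes 0.60 to 0.72, adjusted p = 0.072 to 0.12). Parp9 went from 0.29 to 0.68 at day 0 to -1.42 to -0.58 at day 1, a fall of 1.54 ± 0.14 (adjusted p = 3.8e-09). Dtx3l went from -0.29 to 0.37 to -1.80 to -1.17, a fall of 1.44 ± 0.17 (adjusted p = 2.3e-07). In all 3 genes every day 1 array lay below every day 0 array.

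**Figure D3:**
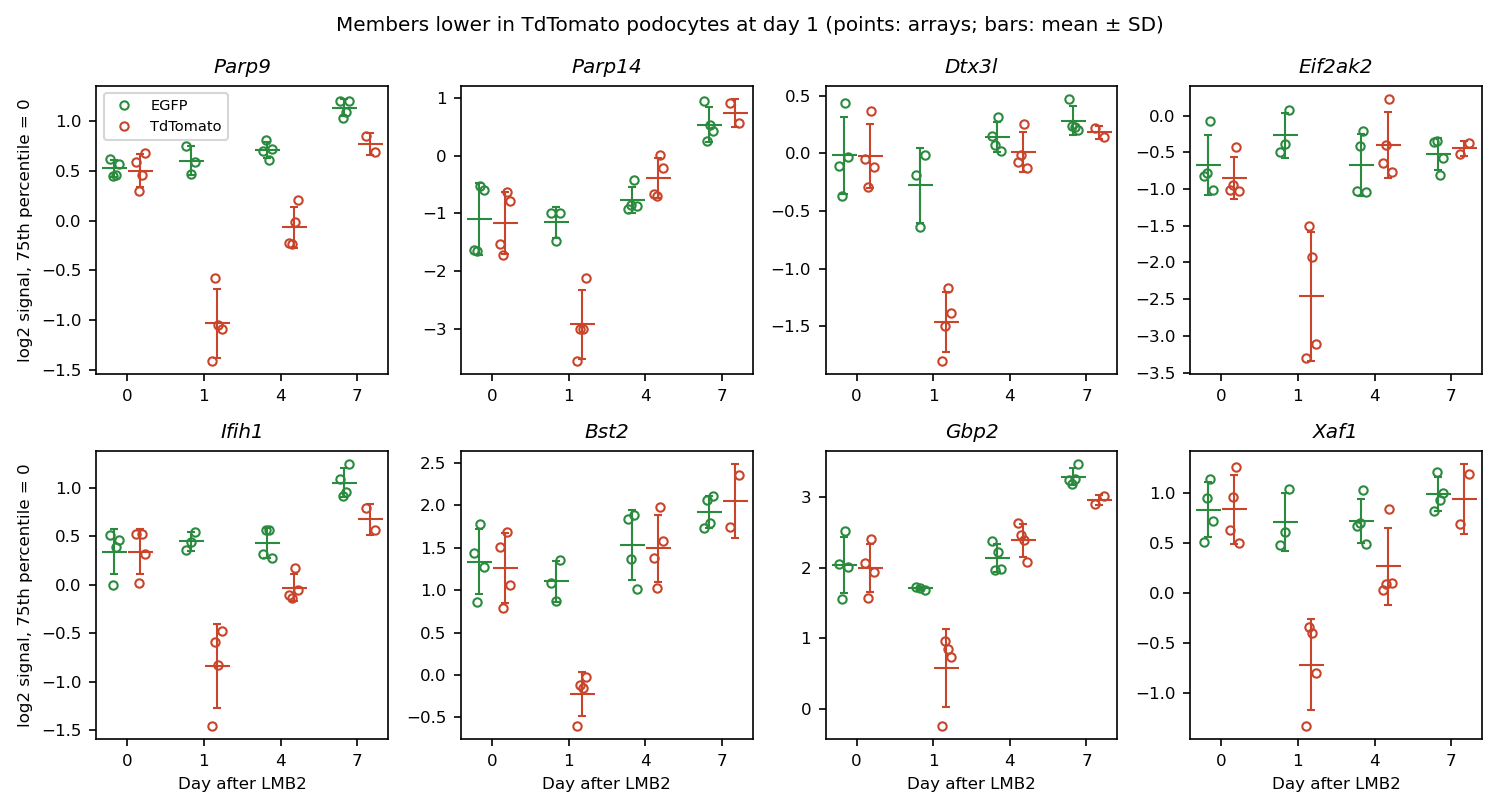
Log2 signal of 8 interferon-stimulated genes in every array (points) by day after LMB2, with the mean and SD of each group (bars), EGFP in green and TdTomato in red. In all 8 the TdTomato day 1 arrays lie below the TdTomato day 0 arrays, with changes from -1.18 for Ifih1 to -1.76 for Parp14, and the EGFP arrays of the same day do not.

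Among the effectors at membranes, Bst2 and Cmpk2 fell at day 1 and Rsad2 and Cmpk2 rose at day 7. Rsad2, which encodes viperin, and its neighbour Cmpk2, a mitochondrial nucleotide kinase, lie side by side on chromosome 12. Rsad2 read -4.13, -3.85, -3.52 and -1.75 on the day 0 TdTomato arrays, -5.09, -4.92, -4.68 and -2.75 at day 1, -4.10, -2.49, -0.84 and -0.64 at day 4 and -0.91 and -0.25 at day 7; the 15 EGFP arrays had a lowest, median and highest value of -5.74, -4.23 and -2.16. Its day 4 arrays were split, with mice MC822 and MC823 high, and the called change was that of day 7, 2.73 ± 0.92 (adjusted p = 0.039). Cmpk2 read -4.24, -3.79, -3.62 and -2.73 on the day 0 TdTomato arrays, -5.16, -5.00, -4.92 and -3.83 at day 1, -3.83, -3.27, -2.46 and -2.12 at day 4 and -2.18 and -1.58 at day 7; the 15 EGFP arrays had a lowest, median and highest value of -3.78, -3.09 and -1.69. Cmpk2 fell by 1.13 ± 0.42 (SE) (adjusted p = 0.025) at day 1 and rose by 1.72 ± 0.51 at day 7 (adjusted p = 0.02), but the day 1 call ended after normexp, which put the day 7 changes at 0.80 for Cmpk2 and 1.37 for Rsad2. The Cmpk2 call at day 1 ended without the TdTomato day 0 array of MC742 or the TdTomato day 1 array of MC125 or MC541 or MC542 (changes -1.07 to -0.84, adjusted p = 0.055 to 0.11). The Cmpk2 call at day 7 ended without the TdTomato day 0 array of MC122 or the TdTomato day 7 array of MC221 or MC791 (changes 1.42 to 2.02, adjusted p = 0.054 to 0.19). The Rsad2 call at day 7 ended without the TdTomato day 0 array of MC122 or MC731 or MC753 or the TdTomato day 7 array of MC221 or MC791 (changes 2.40 to 3.06, adjusted p = 0.066 to 0.22). Quantile scaling also ended the day 7 calls of Rsad2 (2.64, adjusted p = 0.077) and Cmpk2 (1.44, adjusted p = 0.1). With dim probes kept the Rsad2 call ended too, and with only the compared groups in the fit the Cmpk2 call did (adjusted p = 0.052). Bst2, or tetherin, which holds budding virus at the surface, went from 0.79 to 1.68 at day 0 to -0.60 to -0.03 at day 1, a fall of 1.49 ± 0.24 (adjusted p = 1.6e-05). Ifitm3, which blocks viral fusion, spanned -2.52 to 1.52 within day 4 and had no call, and Samd9l had none either.

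Of the guanylate-binding proteins, GTPases that attack the membranes around pathogens, Gbp3 rose from day 4 on and Gbp2 dipped first. Gbp3 read -2.41, -2.33, -1.29 and -0.42 on the day 0 TdTomato arrays, -3.04, -2.84, -2.03 and -1.70 at day 1, -0.19, 0.05, 0.12 and 0.29 at day 4 and -0.15 and 0.04 at day 7, and the EGFP arrays read -2.31, -2.06, -1.15 and -0.51 at day 0 and -0.23, 0.00, 0.20 and 0.68 at day 7. Gbp3 rose by 1.68 ± 0.41 (SE), which is 3.2-fold (adjusted p = 0.0012) at day 4, and at day 7 the change was 1.56 in TdTomato (adjusted p = 0.031) and 1.67 in EGFP podocytes (adjusted p = 0.0099). These 3 changes were 1.06, 1.00 and 1.11 after normexp, all still called. With only the compared groups in the fit, the Gbp3 calls at day 7 ended in TdTomato (adjusted p = 0.14) and EGFP podocytes (adjusted p = 0.054). Gbp2 fell by 1.42 ± 0.22 in TdTomato podocytes at day 1 (adjusted p = 8.8e-06), and by day 7 it was up by 0.97 there (adjusted p = 0.015) and by 1.25 in EGFP podocytes (adjusted p = 0.00046). The Gbp3 call at day 7 ended without the TdTomato day 0 array of MC122 or MC731 or the TdTomato day 7 array of MC221 or MC791 (changes 1.29 to 1.65, adjusted p = 0.078 to 0.17). The Gbp2 call at day 7 ended without the TdTomato day 7 array of MC221 or MC791 (changes 0.91 to 1.02, adjusted p = 0.079 to 0.11). The Gbp3 call in EGFP podocytes at day 7 ended without the EGFP day 0 array of MC731 (change 1.40, adjusted p = 0.056).

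Ifi44 and Apol9b, an apolipoprotein L gene, were well above background on 2 and 2 of the 4 TdTomato day 0 arrays and on all 4 at day 4. Ifi44 was well above background on 11 of 29 arrays and read -5.82, -5.49, -4.78 and -4.41 on the day 0 TdTomato arrays, -5.99, -5.11, -5.10 and -4.10 at day 1, -3.05, -2.24, -2.18 and -1.66 at day 4 and -2.71 and -2.45 at day 7; the 15 EGFP arrays had a lowest, median and highest value of -6.59, -5.57 and -3.51. Ifi44 rose by 2.84 ± 0.55 (SE) at day 4 (adjusted p = 0.00015) and by 2.55 ± 0.68 at day 7 (adjusted p = 0.01). Apol9b, above background on 15 of 29 arrays, read -5.24, -4.83, -4.72 and -3.95 on the day 0 TdTomato arrays, -6.67, -5.01, -3.97 and -3.78 at day 1, -2.11, -1.64, -1.31 and -0.95 at day 4 and -1.67 and -1.65 at day 7; the 15 EGFP arrays had a lowest, median and highest value of -6.70, -4.72 and -2.74. Apol9b rose by 3.18 ± 0.59 (SE) at day 4 (adjusted p = 9.3e-05) and by 3.03 ± 0.73 at day 7 (adjusted p = 0.0049). All 4 day 4 and both day 7 arrays of these genes lay above all TdTomato day 0 arrays. After normexp the day 4 and day 7 changes were 0.49 and 0.71 for Ifi44 and 0.93 and 1.05 for Apol9b, all still called. Apol9b has a near-identical copy, Apol9a, and its signal may include both. Rtp4, a chaperone of surface receptors, read -2.16, -1.38, -1.33 and -1.04 on the day 0 TdTomato arrays, -3.21, -3.02, -2.53 and -1.38 at day 1, -1.54, -1.07, -0.62 and -0.25 at day 4 and 0.45 and 0.49 at day 7; the 15 EGFP arrays had a lowest, median and highest value of -3.00, -1.50 and 0.39. It fell by 1.06 ± 0.40 at day 1 (adjusted p = 0.029; -0.63 after normexp) and rose by 1.95 ± 0.49 at day 7 (adjusted p = 0.0067). Ifi35 fell by 1.09 at day 1 (adjusted p = 2.2e-06) and 0.73 at day 4 (adjusted p = 0.00037). Xaf1, a partner of the apoptosis inhibitor XIAP, fell by 1.56 at day 1 (adjusted p = 3.5e-06); its day 4 change of -0.57 turned to 0.30 when its 2 probes were averaged. The Xaf1 call at day 4 ended without the TdTomato day 0 array of MC731 or MC742 or the TdTomato day 4 array of MC151 or MC692 or MC823 (changes -0.53 to -0.43, adjusted p = 0.078 to 0.13). The Ifi44 call at day 7 ended without the TdTomato day 7 array of MC221 or MC791 (changes 2.41 to 2.68, adjusted p = 0.062 to 0.093). The Rtp4 call at day 1 ended without the TdTomato day 0 array of MC122 or MC742 or MC753 or the TdTomato day 1 array of MC125 or MC541 or MC542 (changes -1.06 to -0.83, adjusted p = 0.051 to 0.11). The Rtp4 call at day 7 ended without the TdTomato day 7 array of MC221 or MC791 (changes 1.93 to 1.97, adjusted p = 0.057 to 0.061).

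In EGFP podocytes no member was called at day 1, against 0.0256% of all genes called higher and 0% lower, and none at day 4, against 0.557% and 0.0384%. At an unadjusted p under 0.05 in limma, 0 and 1 members passed at these days. At day 7, 5 of 32 were called higher and none lower, against 5.34% and 1.92%, and 29 of the 32 changes were above 0 with a median of 0.49. The 5 were Parp14, Gbp3, Gbp2, Ifih1 and Parp9. Gbp2 read 1.56, 2.01, 2.04 and 2.52 at day 0 and 3.18, 3.24, 3.26 and 3.47 at day 7, a rise of 1.25 ± 0.22. Ifih1 read 0.00, 0.39, 0.46 and 0.51 and 0.91, 0.95, 1.09 and 1.24, a rise of 0.71 ± 0.17 (adjusted p = 0.0095), and Parp9 rose by 0.61 ± 0.14 (adjusted p = 0.0062). For all 5, the 4 day 7 arrays lay above all 4 day 0 arrays, but the calls were made on these same arrays. In all, 6 of the 32 members had groups that did not overlap. Isg15 was separated too, without a call (0.40 to 1.24 at day 0 and 1.47 to 2.21 at day 7). The share of all genes without overlap was not counted. The count was 5 without mouse MC221 and 3 without the day 0 array of mouse MC731. With slide as a block it was 9, while over all genes 1436 were then called higher and 1165 lower, against 834 and 300 without the block. The Ifih1 call in EGFP podocytes at day 7 ended without the EGFP day 0 array of MC731 (change 0.60, adjusted p = 0.053). The endothelial marker medians of the EGFP day 7 arrays, from -2.93 to -2.07, lay within or below those of day 0, from -2.64 to -1.26. Myeloid medians ran from -5.52 to -3.82, with MC221 highest, against -5.37 to -4.45. Proximal tubule medians ran from -4.87 to -1.77, against -3.81 to -3.27. Mesangial and smooth muscle medians were lower, and lymphocyte and plasmacytoid medians stayed within the day 0 range. Podocyte medians ran from 7.39 to 7.6, against 7.54 to 8.04. The part of other cells in the EGFP changes was not tested.

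Before the toxin no member was called between TdTomato and EGFP at day 0. Of all genes, 0% were called higher and 0% lower, and limma gave 0 members an unadjusted p under 0.05. At day 1, 4 members were higher and 12 lower in TdTomato podocytes, against 23.7% and 25.6% of all genes. At day 4, 11 were higher and 6 lower, against 21% and 38.6%. Isg15 was 18.9-fold higher than in EGFP podocytes at that day (adjusted p = 8.1e-10). Oasl1, Apol9b and Ifi44 were not well above background on any EGFP day 4 array. Set against the lowest signal that counts as above background on those arrays, or the gene's own value where that is higher, Oasl1 was at least 7.75-fold higher, Apol9b at least 6.89-fold and Ifi44 at least 4.07-fold (adjusted p = 3.1e-05, 8e-05 and 5.9e-05). On the log2 scale these differences were 3.62, 3.20 and 3.06, and after normexp 1.23, 0.94 and 0.61, all still called.

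At day 7, 3 members were higher in TdTomato than in EGFP podocytes and none lower, against 6.19% and 0.8% of all genes: Isg15 by 1.41 ± 0.43 (adjusted p = 0.049), Ifi44 by 2.57 ± 0.68 (adjusted p = 0.019) and Apol9b by 2.53 ± 0.73 (adjusted p = 0.034). Of the 4 EGFP day 7 arrays, 1 was well above background for Ifi44 and 3 were for Apol9b, and after normexp these 2 differences were 0.80 and 0.91, still called. Quantile scaling ended the Ifi44 call (adjusted p = 0.072). With only the compared groups in the fit, both the Ifi44 and Apol9b calls ended (adjusted p = 0.14 and 0.18). The Isg15 call between colours at day 7 ended without the EGFP day 7 array of MC221 or MC791 or MC824 or MC943 or the TdTomato day 7 array of MC221 or MC791 (changes 1.16 to 1.66, adjusted p = 0.053 to 0.3). The Ifi44 call between colours at day 7 ended without the TdTomato day 7 array of MC221 or MC791 or the EGFP day 7 array of MC791 (changes 2.12 to 2.70, adjusted p = 0.065 to 0.16). The Apol9b call between colours at day 7 ended without the TdTomato day 7 array of MC221 or MC791 or the EGFP day 7 array of MC791 or MC824 (changes 1.88 to 2.54, adjusted p = 0.064 to 0.18). Removing both MC221 arrays left 1 call. Without either TdTomato day 7 array, or without the EGFP array of MC791, there was none, and without that of MC824 there was 1. With the mouse as a replicate block, which pairs the 2 colours of an animal, there were 6, all higher. Apol9b was not among them (1.85, adjusted p = 0.051). Over all genes 1168 were called higher and 521 lower with the block, against 967 and 125 without it.

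Whether the 2 colours changed differently from their own day 0 was tested directly. The interaction was called for 13 members at day 1, 4 with the larger change in TdTomato and 9 with the lower, against 18.3% and 20.1% of all genes. At day 4 it was called for 12, of which 9 were higher and 3 lower, against 16% and 28.3%; with the mouse as a replicate block the count was 20, while over all genes it was called higher for 3323 and lower for 6715, against 2503 and 4429 without the block. At day 7 none was called, against 2.65% and 0.0384%, with 4 members at an unadjusted p under 0.05 in limma and 2 calls with the block, which gave 632 and 73 calls over all genes against 414 and 6. Without mouse MC221 none was called either. The EGFP and TdTomato changes at day 7, such as 1.64 and 1.91 for Parp14, 1.67 and 1.56 for Gbp3 and 1.25 and 0.97 for Gbp2, were thus not shown to differ.

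Markers of other cell types moved with part of these results. The median of 10 glomerular endothelial markers was at most -1.21 on any day 0 array, but -0.48 on the TdTomato day 1 array of mouse MC831, 1.00 and 1.13 on the day 4 arrays of MC822 and MC823, and 0.54 and 2.19 on the day 7 arrays of MC221 and MC791. Cdh5, the endothelial cadherin, read -4.00, -3.46, -2.91 and -1.90 at day 0 in TdTomato podocytes, -5.01, -3.37, 0.38 and 0.43 at day 4 and -0.19 and 1.60 at day 7. Over all genes, 23.8%, 21.4% and 10.9% were called higher and 27.9%, 35.9% and 8.47% lower at days 1, 4 and 7. Of the 10 markers, 0 were called higher and 1 lower at day 1, 1 higher at day 4 and 5 higher at day 7. The median of 11 myeloid markers was also higher on these 5 arrays, between -3.14 and -2.15 against between -4.77 and -4.21 on the TdTomato day 0 arrays. Rsad2, Oas1a, Oasl2 and Ifitm3 were high on the same day 4 arrays, and the part of other cells in their changes was not tested.  Of 6 lymphocyte and plasmacytoid markers measured, 0, 1 and 1 were called higher and 1, 1 and 0 lower at days 1, 4 and 7. Of 8 mesangial and smooth muscle markers, 0, 2 and 4 were higher and 1, 1 and 0 lower, and of 9 proximal tubule markers 1 was higher at each day. The proximal tubule median was 1.87 on the TdTomato day 4 array of MC823. It was -2.97 to -2.81 on the other arrays of that group and -2.87 to -1.5 on the TdTomato day 0 arrays. Of 8 podocyte markers, 6, 7 and 5 were lower and none higher.

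The fit was repeated without the TdTomato arrays whose endothelial median lay more than 0.5 above every day 0 array, an alternative chosen after seeing the data; at day 7 this would remove both arrays, so it was run for days 1 and 4. The day 1 count was 20 (4 higher, 16 lower) and no longer held Herc6 (-0.58, adjusted p = 0.072). The day 4 count was 15 (9 higher, 6 lower) and no longer held Parp14 (0.49, adjusted p = 0.25). Without these arrays Ifit3 changed by 3.31 at day 1, Ifit2 by 2.55, Irf1 by 2.14 and Parp9 by -1.52. Isg15 changed by 4.40 at day 4, Oasl1 by 3.42, Ifi44 by 2.48 and Apol9b by 3.15, all still called. Rsad2, by contrast, differed between TdTomato and EGFP at day 4 by 2.46 with them and by 1.18 without (adjusted p = 0.21). The median change of the 32 members at day 4 fell from 0.56 to 0.01 without these 2 arrays. In that refit, which kept the TdTomato day 4 arrays of MC151 and MC692 only, the median change of all genes was -0.34.

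**Figure D4:**
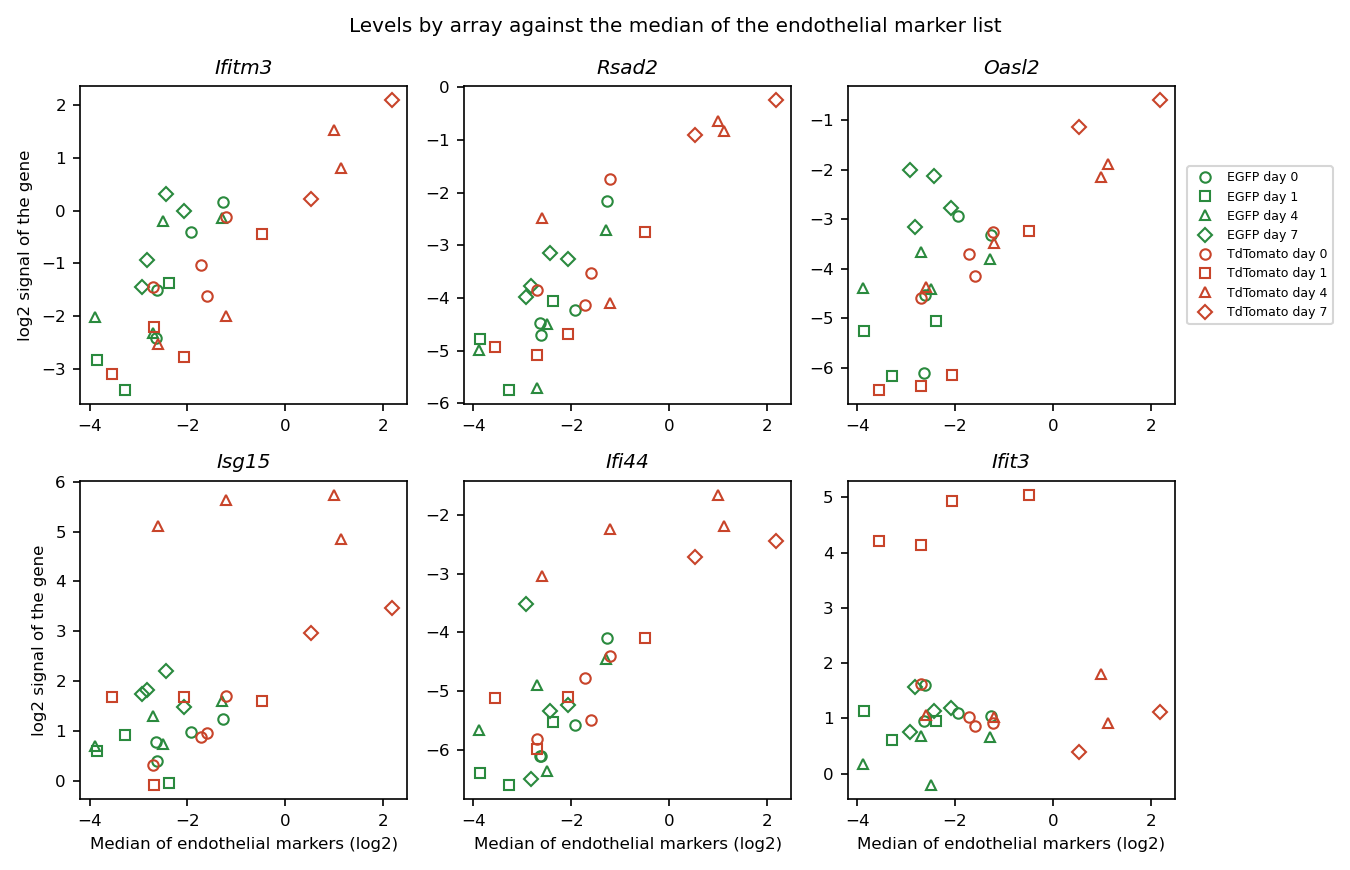
Log2 signal of 6 interferon-stimulated genes (vertical) against the median of the 10 endothelial markers (horizontal) on each of the 29 arrays, EGFP in green and TdTomato in red, with a symbol for each day. Ifitm3, Rsad2 and Oasl2 are high on the arrays with the highest endothelial medians. Isg15 is high on all 4 TdTomato day 4 arrays (4.86 to 5.73), whose endothelial medians run from -2.59 to 1.13. Ifit3 is high on all 4 TdTomato day 1 arrays (4.13 to 5.03), whose medians span less, from -3.55 to -0.48. The part of other cells was not tested.

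The arrays lay on 4 slides, each of which held several groups. Of the 88 calls on members in the comparisons of days and colours, 86 kept their direction within every slide that held both groups; the exceptions were Oasl2 and Herc6 at day 1, each on 1 of 4 slides. The calls were made on these same arrays, so such agreement is largely built in and is no separate test of the slides. It was not counted for the called genes outside the members. The within-slide medians of the members ranged from -1.27 to -0.12 at day 1, from 0.24 to 0.67 at day 4, and were 1.34 and 0.79 at day 7.

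The rest of the pathway was read in TdTomato podocytes from lists of ligands, receptors, sensors, inhibitors and other targets. The alternative fits, normexp included, were read gene by gene for the members only. How the changes of the pathway genes depend on the processing is therefore not known. The counts of each list stand beside 23.8% of all genes higher and 27.9% lower at day 1, 21.4% and 35.9% at day 4, and 10.9% and 8.47% at day 7. Of 11 listed ligands 7 were measured; Ifnb1, the interferon most cells make first, did not pass the filter. Ifna1, Ifna2 and Ifna5, which are near-identical and may share signal, rose by 2.01, 1.99 and 1.94 in TdTomato podocytes at day 4 (adjusted p = 5.3e-07, 7.1e-05 and 4e-06). Ifna1 read -3.57, -3.23, -3.20 and -2.72 at day 0 and -1.59, -1.51, -0.83 and -0.76 at day 4. Il15, a cytokine that interferon induces, was not well above background on any day 0 TdTomato array and was at least 1.87-fold higher at day 4 (adjusted p = 0.0084). Of the 7 ligands, 1 was higher at day 1, 4 at day 4 and 1 at day 7, and none was lower.

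All 11 receptors and kinases were measured, with 4 higher and 3 lower at day 1 and 1 higher and 6 lower at day 4. The receptor of type I interferon fell: Ifnar2 read 2.74, 2.83, 2.87 and 2.98 on the TdTomato day 0 arrays, 0.68, 1.05, 1.24 and 1.70 at day 1 and 1.55, 1.59, 2.08 and 2.08 at day 4, a fall of 1.69 ± 0.17 at day 1 (adjusted p = 1.8e-08). Ifnar1 fell by 0.90 ± 0.16 at day 4 (adjusted p = 4.1e-05). Ifngr2, a chain of the interferon gamma receptor, rose by 2.31 at day 1 (adjusted p = 7.6e-10), and the kinase Tyk2 by 2.49 (adjusted p = 1e-05). Ifnlr1, a chain of the interferon lambda receptor, rose by 1.95 at day 4 (adjusted p = 0.0003).

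Of 18 sensors and adaptors measured, 10 were higher and 4 lower at day 1, 3 and 6 at day 4, and 7 and 1 at day 7. Irf5, a factor downstream of Toll-like receptors, was not well above background at day 0 and was at least 10.8-fold higher at day 1 (adjusted p = 2.7e-08) and Ikbke, a kinase that activates IRF3 and IRF7, rose by 3.29 at day 4 (adjusted p = 5.3e-07). Traf3, an adaptor to that kinase, rose by 1.97 at day 4 (adjusted p = 2.3e-08), and Tlr4 by 2.94 at day 7 (adjusted p = 0.0089). Among 14 inhibitors, 9 were higher and 3 lower at day 1 and 4 and 3 at day 4. The day 1 increases included Cish with 3.24 (adjusted p = 5.7e-09), Irf2 with 3.19 (adjusted p = 1.2e-09) and Tnfaip3, the NF-kB inhibitor A20, with 2.46 (adjusted p = 2.3e-07). Ptpn6, a phosphatase of blood cells, rose by 3.72 at day 4 (adjusted p = 9.6e-10).

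Of 38 further targets measured, 10 were higher and 13 lower at day 1, 9 and 8 at day 4, and 11 and 1 at day 7. Ifit1bl1, an IFIT relative, read -6.50, -6.26, -5.68 and -4.98 at day 0 and 0.86, 1.04, 1.25 and 1.34 at day 1, a rise of 6.98 ± 0.33 (adjusted p = 5.6e-14). The day 0 values of -6.50, -6.26 and -5.68 lay below -5.347, the lowest signal well above background on any TdTomato day 0 array. The size of this rise thus rests partly on background. Isg20, an exonuclease, rose by 4.22 at day 1 and 4.37 at day 4 (adjusted p = 2.6e-14 and 6e-15). Cxcl10, a chemokine for T cells, rose by 5.75 at day 1 in TdTomato podocytes (adjusted p = 3.5e-10) and by 4.39 in EGFP podocytes at day 7 (adjusted p = 3e-07). Gbp4, not well above background at day 0, was at least 3.63-, 7.89- and 6.31-fold higher at days 1, 4 and 7 in TdTomato podocytes (adjusted p = 3.1e-06, 7.6e-08 and 2.4e-05). In EGFP podocytes at day 7, 5 of the 18 sensors and adaptors, 6 of the 38 further targets, 1 of the 11 receptors and kinases and 1 of the 14 inhibitors were higher, none was lower, and no ligand was called, where 5.34% of all genes were higher and 1.92% lower.

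Set beside the promoters, members with an ISRE core were found among both the risers and the fallers. Of the 13 with a match, 1 was called higher and 5 lower in TdTomato podocytes at day 1, 4 higher and 1 lower at day 4, and 6 higher and none lower at day 7. Of the 14 with a window and no match, 3 were higher and 8 lower at day 1, 4 and 4 at day 4, and 3 higher and none lower at day 7. Of the 5 without a window, none was higher and 3 were lower at day 1, 2 and 1 at day 4, and 2 higher and none lower at day 7. In EGFP podocytes at day 7, 3 of the 13, none of the 14 and 2 of the 5 without a window were called, all higher. Bst2, with overlapping GAS and ISRE cores, fell at day 1, and Ifit3, with 2 ISRE cores, rose most at that day. No difference between these groups of genes was tested.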

How the data were processed

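The authors deposited one scanner file per sample; per the submitters' processing notes these came from Agilent Feature Extraction 11.5.1.1, and the intensity used was its deposited processed signal, which is background-corrected by that software. Per the labels, podocytes were sorted with a FACSAria, RNA was extracted with TRIzol LS and Cy3-labelled from low input. The authors' value table holds log2 values as deposited; compared with the scanner files, 27 of its 29 columns were that array's log2 signal shifted by a constant, with column medians from -0.646 to -0.462. How that constant was chosen, and what the 2 MC221 columns hold, stays unknown. It served as an alternative only.

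Spots flagged as outliers or non-uniform were set aside (50 missing values), spots of a probe were averaged, and log2 of the signal minus each array's 75th percentile was taken. Of 55681 probes, 26582 had 1 gene symbol through their accession in RefSeq, 29099 had none and 0 had several; 20145 genes were named. Probes well above background on at least 3 of 29 arrays were kept (38196, of which 20454 had a symbol), with the brightest per gene, giving 15628 genes. Group means of the 8 groups were fitted with limma 3.58.1 in R 4.3.3 (lmFit, eBayes), with Benjamini-Hochberg adjustment at 0.05 over all genes. The procedure was tested on simulated arrays drawn independently. These could not check a fit that leaves out the pairing of colours within a mouse. Tables were made in Python 3.11.15 with numpy 2.4.6 and pandas 2.3.3, and figures with matplotlib 3.10.9.

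Alternatives were normexp (offset 50, on the median signal, in place of the planned mean signal), quantile scaling, no filter, a strict filter, the authors' values, the mean of a gene's probes, keeping flagged spots, slide and mouse as blocks, only the compared groups, leaving out MC221, leaving out each array, and leaving out arrays high in endothelial markers, which was added after seeing the data. The mouse pairs the colours because both samples come from 1 animal, and their deviations from the group means correlated at 0.041 to 0.64 over 13 mice. The consensus correlation within mice in limma was 0.596. Values in every sample were given for Stat2, Irf9, Irf7, Irf1 and the 16 called members with the largest change; up to 4 called genes of each pathway list were named by the largest change, plus Ifnb1, Ifnar1 and Ifnar2; 1 further gene of that rule is not reported here. Ifit3b and Ube2l6 fell outside that rule. The members and lists were chosen with earlier results of these data known.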

Additional observations from a re-analysis of the deposited data

Results flagged for a closer look

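In groups of 4 arrays, a single array was set apart when its gap to the nearest other exceeded Dixon's 95% critical share of the group's range. Of 192 gene and group combinations tested, 13 had such an array, and 1 in 20 would give 9.6 by chance. At log2 signal, these were Irf9 in EGFP podocytes at day 0 (lowest, MC731, 1.86 against 2.46 for the nearest), Irf1 in EGFP podocytes at day 0 (lowest, MC731, 5.08 against 5.62 for the nearest), Eif2ak2 in TdTomato podocytes at day 0 (highest, MC742, -0.42 against -0.94 for the nearest) and Ifit1 in EGFP podocytes at day 0 (highest, MC742, -3.26 against -4.01 for the nearest). A further set was Ifit3 in TdTomato podocytes at day 4 (highest, MC822, 1.81 against 1.06 for the nearest), Oasl1 in TdTomato podocytes at day 4 (highest, MC151, -1.10 against -1.41 for the nearest), Oasl2 in TdTomato podocytes at day 1 (highest, MC831, -3.24 against -6.15 for the nearest), Isg15 in TdTomato podocytes at day 1 (lowest, MC541, -0.074 against 1.60 for the nearest) and Trim25 in EGFP podocytes at day 4 (highest, MC692, 4.71 against 4.35 for the nearest). The remaining ones were Dtx3l in EGFP podocytes at day 7 (highest, MC221, 0.47 against 0.24 for the nearest), Parp14 in EGFP podocytes at day 4 (highest, MC822, -0.42 against -0.86 for the nearest), Samd9l in TdTomato podocytes at day 1 (lowest, MC125, -2.45 against -1.20 for the nearest) and Xaf1 in TdTomato podocytes at day 4 (highest, MC822, 0.84 against 0.10 for the nearest). The TdTomato arrays of MC822 and MC831 named among them were also high in endothelial markers, whose part was not tested.

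The change from day 0 to day 1 differed between the populations for 13 members by the interaction test in limma (adjusted p from 1.8e-07 to 0.02). The TdTomato change exceeded the EGFP change on the log2 scale by these amounts: Ifit3 3.73, Irf1 2.72, Ifit2 2.66 and Irf9 1.16. It lay below the EGFP change for the others, with differences of Ifi35 -1.06, Gbp2 -1.09, Dtx3l -1.18, Bst2 -1.25, Ifih1 -1.29, Xaf1 -1.43, Parp9 -1.62, Parp14 -1.70 and Eif2ak2 -2.01. The change from day 0 to day 4 differed between the populations for 12 members by the interaction test in limma (adjusted p from 9.6e-07 to 0.048). The TdTomato change exceeded the EGFP change on the log2 scale by these amounts: Isg15 4.12, Apol9b 3.23, Ifi44 2.71, Oasl1 2.55, Ifit1 1.95, Dhx58 1.88, Irf1 1.54, Irf9 1.27 and Ifit3 0.93. It lay below the EGFP change for the others, with differences of Parp9 -0.76, Ifi35 -0.88 and Trim25 -0.94. Apol9b, Ifi44 and Oasl1 were not well above background on any EGFP day 4 array. Interactions of single members were not read under the alternatives. After normexp, Dhx58 and Ifit1 were no longer called between TdTomato and EGFP at day 4 (0.30 and 0.32, adjusted p = 0.13 and 0.1).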

How the results depend on the processing

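Of the 88 member calls in the comparisons of days and colours, 58 kept their direction and side of the threshold under every alternative run for them and 30 lost the call in at least 1. Xaf1 at TdTomato day 4 turned from -0.57 to 0.30 (adjusted p = 0.21) with the mean of its probes. For EGFP at day 7 (5 calls), slide as a block gave 9 and leaving out single arrays gave 3 to 6. For TdTomato at day 7 (11 calls), leaving out both MC221 arrays gave 5 and single arrays 3 to 13. For TdTomato against EGFP at day 7 (3 calls), normexp gave 6, the strict filter 5, the authors' values 6, slide as a block 6, leaving out both MC221 arrays 1, and single arrays 0 to 3. The causes were not tested. The mouse as a fixed replicate block gave 6 calls between colours at day 7, and 20 and 2 for the interactions at days 4 and 7 (12 and 0 without the block); the authors' values gave 1 at day 7. All other counts stayed within 1.5 times of their value. Precision is limited by the number of arrays, and for dim genes such as Ifi44, well above background on 11 of 29 arrays, by signal over background.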
